A study of Mus musculus with 2 samples.

Results

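Levels and isoforms of 10 genes of the unfolded protein response were examined in mouse muscle stem cells (MuSCs), the cells that repair skeletal muscle. The genes are Xbp1, Atf4, Ddit3, Atf6, Ern1, Herpud1, Sdf2l1, Creld2, Manf and Calr. They were given by name, with earlier results of these data known. They are 10 of the 20830 genes in the count table of one library and of the 26997 genes in that of the other. All 10 were found by the Ensembl identifier of their mouse symbol in both tables. The cells came from Pax7creERT2R26-eYFPfl/fl mice on a C57BL6 background, in which tamoxifen switches on YFP in cells that express Pax7. At 3 months of age the mice received daily injections of 100 µL tamoxifen at 20 mg/ml. Quiescent MuSCs were taken from uninjured hindlimb muscle and activated MuSCs from muscle collected 72 h after an injection of 40 µL of 1.2% barium chloride. Both were sorted on YFP and run together in 1 droplet capture, so whether a given cell was quiescent or activated is not recorded. The emulsion was divided into a 10% library, read by Illumina and by nanopore sequencing, and a 90% library, read by Illumina. Each library is 1 sample with no replicate, so no test was possible. The 95% intervals below cover counting error only, or, for shares of barcodes, only the limited number of barcodes.

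The unfolded protein response is the set of pathways by which cells adjust when proteins fold poorly in the endoplasmic reticulum (ER). Ire1, encoded by Ern1, cuts a short intron out of Xbp1 mRNA and thereby produces the active transcription factor. Perk, encoded by Eif2ak3, phosphorylates eIF2α, which lowers translation but favours that of Atf4, and Atf4 in turn raises Ddit3, also called CHOP. Atf6 is cut in the Golgi apparatus and enters the nucleus. Chaperones, foldases and degradation factors are their shared targets. In MuSCs, phosphorylation of eIF2α is known as a feature of the quiescent state.

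The Xbp1 intron is shown because the long reads cover it. It lies in exon 4 of the reference transcript ENSMUST00000063084.15, at chr11:5524270-5524295 on the + strand of GRCm38, within the coding sequence. The stretch chr11:5524240-5524325 from Gencode vM21 is printed first with the intron in capitals and then with the intron removed.
Xbp1, intron kept: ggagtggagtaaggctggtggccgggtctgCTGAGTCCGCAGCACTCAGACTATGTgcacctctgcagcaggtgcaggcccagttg
Xbp1, intron removed: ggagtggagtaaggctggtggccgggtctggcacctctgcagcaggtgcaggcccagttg
Removing 26 bases shifts the reading frame. The open reading frame of the reference transcript encodes 267 residues with the intron kept and 371 with it removed, and the first 156 residues are shared.

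Barcodes of 3000 to 15000 UMIs with 0 UMIs of the cell-cycle genes Rrm2, Top2a and Cdk1 are called low-count, and barcodes of at least 20000 UMIs are called deep. The 10% library held 157 low-count barcodes (median 6729 UMIs) and 79 deep barcodes (median 65499). The 90% library held 1243 low-count barcodes (median 4680 UMIs) and 606 deep barcodes (median 47106). The libraries shared cells. All 269 barcodes of at least 3000 UMIs in the 10% library were also listed in the 90% library. Profiles of the 79 deep barcodes of the 10% library were each closest to the same barcode in the 90% library, in 79 of 79 cases. The 90% library was therefore also analysed without the barcodes of the 10% library, which left 1000 low-count and 399 deep barcodes.

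Low-count barcodes had higher levels of quiescence markers. All 7 such markers were higher there in both libraries, with summed levels of 508 and 608 CPM (UMIs of the gene per 1000000 UMIs of the class) against 41.4 and 34.3 CPM in deep barcodes. Pax7 was at 27.8 and 18.8 CPM against 12.2 and 7.80 CPM. Of 7 markers of activated or dividing myoblasts, Rrm2, Top2a and Cdk1 were at 0 in low-count barcodes by the definition of the class. Of the other 4, Myog, Mki67 and Ccnb1 were lower there in both libraries and Myod1 was higher, at 1106 and 1069 CPM against 185 and 213 CPM. Genes of the early response to tissue dissociation moved with the classes too. All 8 of that list were higher in low-count barcodes, with summed levels of 2072 and 2859 CPM against 436 and 415 CPM. Immune markers summed to 258 and 189 CPM against 44.5 and 3.62 CPM, with 2 of 5 higher in low-count barcodes in both libraries and Ptprc at 0 and 0.775 CPM. Endothelial markers summed to 46.7 and 47.1 CPM against 4.12 and 3.82 CPM, with 2 of 4 higher in both. For fibro-adipogenic markers the sums were 168 and 257 CPM against 46.7 and 44.4 CPM, mostly Col3a1, with Pdgfra at 0 CPM in low-count barcodes of both libraries. Myofibre markers summed to 52.0 and 68.3 CPM against 23.9 and 39.4 CPM. The part of dissociation, of other cell types and of depth in the results below was not tested beyond the values given beside them.

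Xbp1 and Herpud1 differed most between the classes among the 10 genes. Xbp1 stood at 219 CPM in low-count and 27.9 CPM in deep barcodes of the 10% library, and at 287 and 24.6 CPM in those of the 90% library. The pooled low-count levels lay above the pooled deep levels, and their counting intervals did not overlap. This was a 7.86-fold difference (95% interval 6.37 to 9.74) in the 10% library and an 11.7-fold difference (10.7 to 12.7) in the 90% library. Without the shared barcodes the 90% library gave 288 and 21.7 CPM, or 13.3-fold (11.9 to 14.9). The counts behind these levels were 244 and 142 UMIs in the 10% library and 1853 and 735 UMIs in the 90% library. No single barcode carried the low-count level, since the richest held 3.69% of the Xbp1 UMIs of its class in the 10% library and 0.594% in the 90% library.

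**Figure D1:**
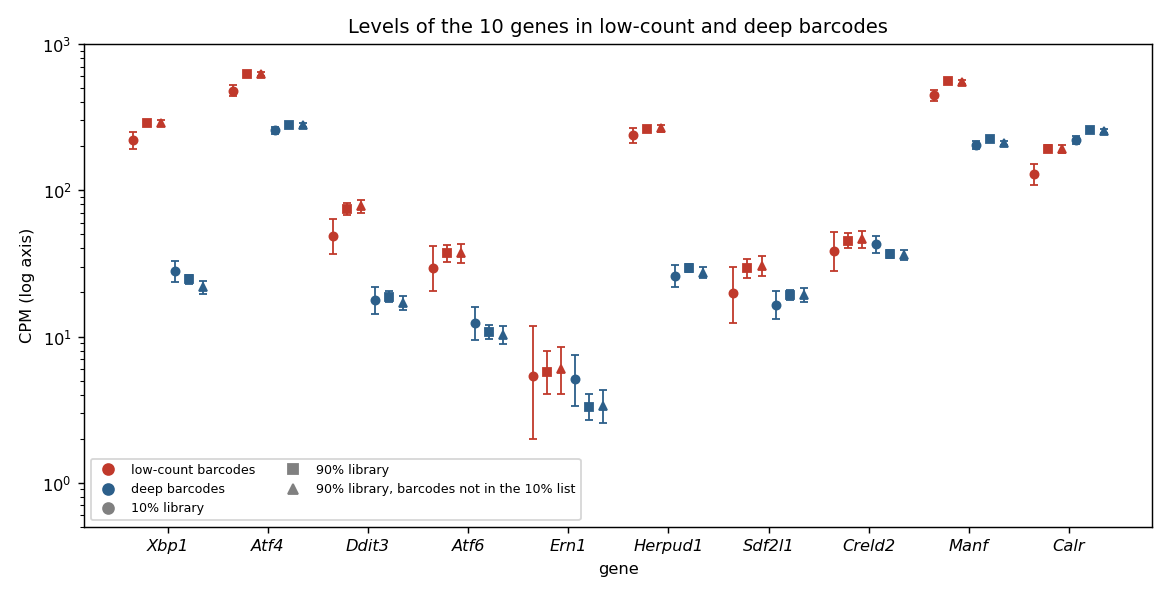
Levels of the 10 genes in CPM on a log axis, with low-count barcodes in red and deep barcodes in blue. Circles are the 10% library, squares the 90% library, triangles the 90% library without barcodes of the 10% library, and bars are exact Poisson 95% intervals. Xbp1 and Herpud1 lie far apart between the classes, from 219 to 288 CPM against 21.7 to 29.3 CPM, whereas Calr is higher in deep barcodes.

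Herpud1, a membrane protein that helps to degrade misfolded ER proteins, followed Xbp1 closely. Its levels were 237 CPM in low-count and 25.9 CPM in deep barcodes of the 10% library, and 264 and 29.3 CPM in the 90% library. The counting intervals of these pooled levels again did not overlap in either library. The folds were 9.15 (7.40 to 11.4) and 8.99 (8.28 to 9.77), and 9.72 (8.77 to 10.8) without the shared barcodes. Its RefSeq promoter on GRCm38.p6 is shown because it holds a pair of rare elements. ERSE-II (ATTGG, 1 base, CCACG) is bound by Atf6 and XBP1, and the C/EBP-ATF element (TTGCATCA) is bound by Atf4 with C/EBP proteins. ERSE-II began 52 bases and the C/EBP-ATF element 112 bases before the transcription start. Both are in capitals in the window chr8:94386302-94386402 on the + strand.
Herpud1: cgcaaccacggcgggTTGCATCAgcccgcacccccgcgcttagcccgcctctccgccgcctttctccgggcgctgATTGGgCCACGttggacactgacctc
Of 32841 promoters of the same length, searched on both strands, 12 (0.0365%) held ERSE-II and 294 (0.895%) held the C/EBP-ATF element.

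Atf4 and Ddit3, of the Perk branch, showed smaller differences than Xbp1 and Herpud1. Atf4 stood at 480.0 and 256 CPM in low-count and deep barcodes of the 10% library and at 621 and 281 CPM in those of the 90% library. Its levels were higher in low-count barcodes in both libraries, by 1.87-fold (1.69 to 2.07) and 2.21-fold (2.13 to 2.30). On the log2 scale after adding 10 CPM, on which calls were made, the 10% value was 0.88 and fell short of the 2-fold limit, while the 90% value was 1.12. Ddit3, the pro-apoptotic factor CHOP, stood at 48.5 and 17.7 CPM in the 10% library and at 74.4 and 18.7 CPM in the 90% library. The counting intervals of the pooled levels did not overlap, with folds of 2.75 (1.92 to 3.89) and 3.97 (3.51 to 4.49). Its 10% value lay just past the limit, at a log2 of 1.08. It dropped to 0.98 when barcodes with a UMI of an immune or endothelial marker were left out. That removed 5 of 157 low-count and 21 of 79 deep barcodes of the 10% library, and Ddit3 was then at 47.5 and 19.2 CPM. The 90% value stayed past the limit, at 1.48. A second annotated gene of the same symbol overlaps Ddit3 and was not counted, so its level is uncertain.

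The sensors had few UMIs. Atf6 stood at 29.6 CPM in low-count and 12.3 CPM in deep barcodes of the 10% library, and at 37.0 and 10.8 CPM in the 90% library. Low-count barcodes were higher in both, by 2.40-fold (1.52 to 3.71) and 3.44-fold (2.89 to 4.08), but the log2 value after adding 10 CPM passed the limit in the 90% library alone, at 1.18 against 0.83. Ern1 had 6 and 26 UMIs in the classes of the 10% library, or 5.38 and 5.10 CPM, and 37 and 99 UMIs in those of the 90% library, or 5.73 and 3.31 CPM. Both libraries lay under 10 CPM, the lowest level that entered the calls. The fold of 1.06 (0.355 to 2.62) in the 10% library gave no direction within counting error, and that of the 90% library was 1.73 (1.15 to 2.55).

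Of the targets in the ER lumen, Manf was higher in low-count barcodes and Calr in deep barcodes. Manf, a secreted protein that binds the chaperone BiP, stood at 447 and 204 CPM in the 10% library and at 560.1 and 223 CPM in the 90% library. Low-count barcodes exceeded deep barcodes by 2.19-fold (1.963 to 2.438) and 2.51-fold (2.41 to 2.61). Calr, the calcium-binding chaperone calreticulin, stood at 129 CPM in low-count and 221 CPM in deep barcodes of the 10% library, and at 192 and 258 CPM in the 90% library. It was 1.71-fold (1.43 to 2.05) and 1.34-fold (1.26 to 1.43) higher in deep barcodes. Sdf2l1, a partner of ER chaperones, stood at 19.7 and 16.5 CPM and at 29.3 and 19.3 CPM, with folds of 1.20 (0.713 to 1.93) and 1.52 (1.284 to 1.797). Creld2, also an ER protein, differed in direction between the libraries. It was at 38.6 CPM in low-count and 43.0 CPM in deep barcodes of the 10% library, and at 45.3 and 36.5 CPM in the 90% library, with folds of 0.898 (0.632 to 1.25) and 1.24 (1.09 to 1.41).

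The promoters of Calr and Creld2 are shown because each holds an ERSE element (CCAAT, 9 bases, CCACG), the classical site of Atf6 with NF-Y, although neither gene was 2-fold higher in low-count barcodes. The promoter of Hspa5 is set beside them. The element is in capitals and reads on the opposite strand in Calr and Creld2. The windows are chr8:84847060-84847108 (- strand), chr15:88819505-88819553 (+ strand) and chr2:34772010-34772058 (+ strand).
Calr: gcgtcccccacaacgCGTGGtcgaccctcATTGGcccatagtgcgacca
Creld2: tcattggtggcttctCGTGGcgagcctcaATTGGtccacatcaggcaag
Hspa5: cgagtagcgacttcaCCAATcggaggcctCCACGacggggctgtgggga
ERSE was found in 39 of the 32841 promoters (0.119%). RefSeq entries were found for 8 of the 10 genes. Only exact matches within 250 bases before and 50 bases after the start were searched, so variant or more distant elements would be missed. The entries of Xbp1, Atf4, Ddit3, Ern1 and Sdf2l1 held no exact match to these elements or to the UPRE (TGACGTGG, in 0.676% of promoters). Atf6 and Manf had no entry. A match is a description of letters and not evidence of binding.

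In all, 4 of the 9 genes that passed the 10 CPM filter were at least 2-fold higher in low-count barcodes in both libraries, Xbp1, Herpud1, Ddit3 and Manf, and 0 were at least 2-fold higher in deep barcodes. Of the 6942 genes tested in the same way, 10.5% were higher in low-count and 16.0% in deep barcodes. The median log2 ratio over the 9 genes was 0.88 in the 10% and 1.18 in the 90% library, and over all genes tested it was -0.17 and -0.18. Without the shared barcodes the calls among the 10 genes were 4 as well. When barcodes with a UMI of an immune or endothelial marker were left out, 3 were called, and Ddit3 was not among them. Other settings added genes. With TMM factors 5 were called, Atf4 being added, with 1 CPM added in place of 10 there were 5, with Atf6, and with every barcode thinned to 3000 UMIs there were 6, with Atf4 and Atf6.

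**Figure D2:**
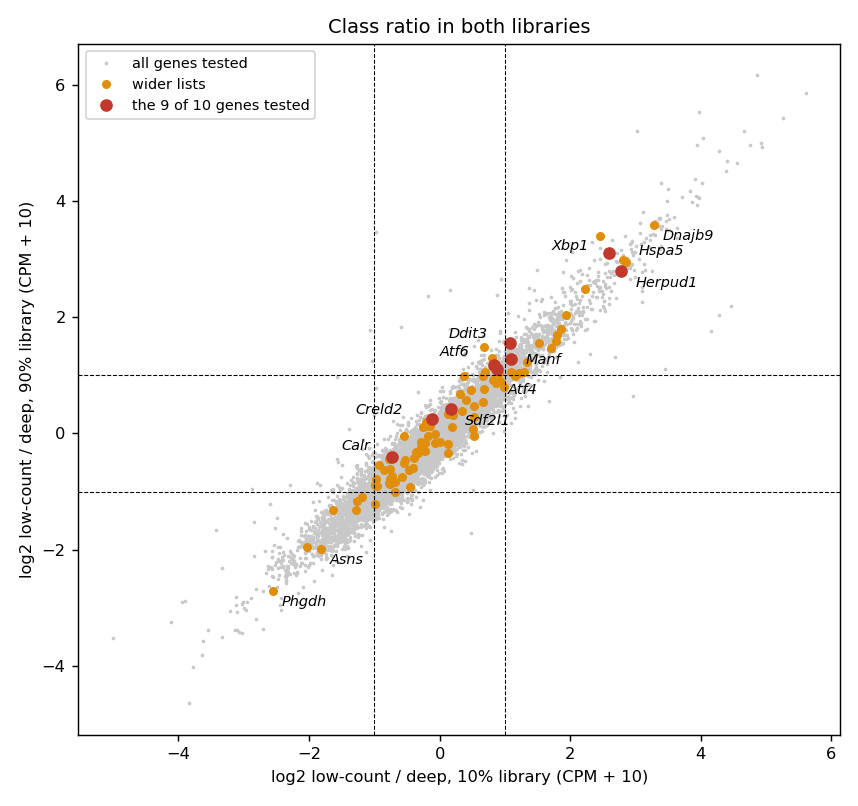
The log2 ratio of low-count to deep barcodes after adding 10 CPM, with the 10% library on the x axis and the 90% library on the y axis. Grey points are the 6942 genes tested, orange points the wider lists, red points the 9 genes, and dashed lines mark 2-fold. Xbp1, Herpud1, Ddit3 and Manf lie past both upper lines, and Creld2 lies above 0 on the y axis and below 0 on the x axis.

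Levels of Xbp1 and Herpud1 were lower in barcodes of more UMIs. In bins of UMIs per barcode of the 90% library, cycling barcodes included, Xbp1 was at 299 CPM from 3000 UMIs, 264 CPM from 6000, 122 CPM from 10000, 117 CPM from 15000 and 31.8 CPM from 20000 UMIs. It stayed at 23.7 and 21.8 CPM in the bins that begin at 40000 and 60000 UMIs. Herpud1 went from 282 through 246, 103 and 61.4 to 28.7 CPM over the same first bins. Calr moved the other way, from 175 CPM in the first of these bins to 270 CPM in the deepest. Barcodes of 1000 to 3000 UMIs did not continue the trend, with Xbp1 at 123 CPM and Herpud1 at 130 CPM. The 10% library had the same low levels from 40000 UMIs, but its Xbp1 was highest in the bin from 6000 UMIs, at 241 CPM, with 147 CPM from 3000, 203 CPM from 10000, 110 CPM from 15000 and 62.2 CPM from 20000 UMIs.

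**Figure D3:**
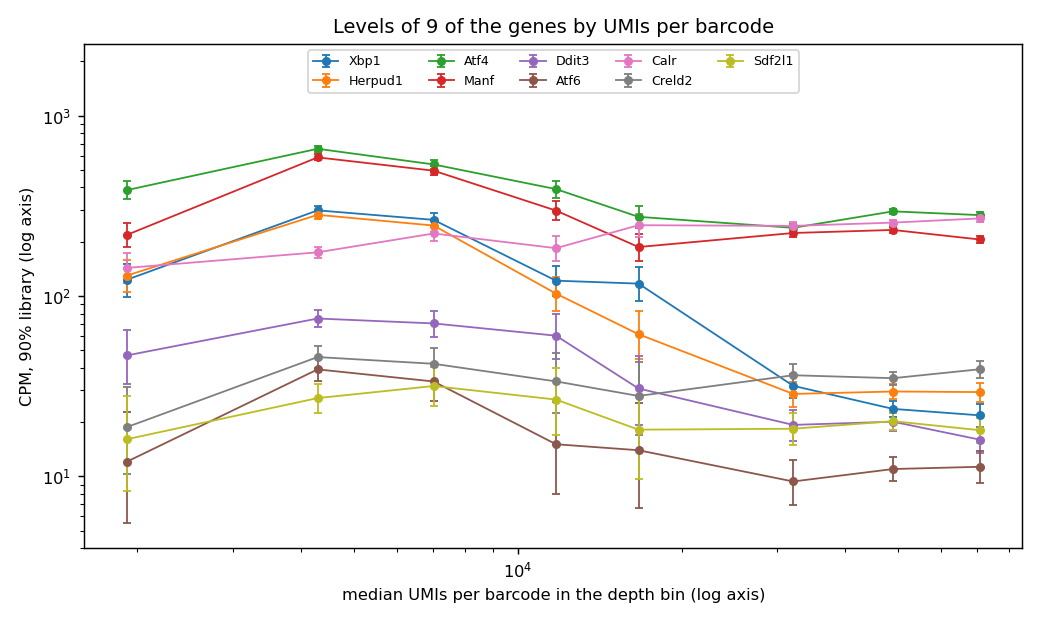
Levels of 9 of the genes in the 90% library, in CPM on a log axis, by the median UMIs of the barcodes in 8 depth bins, also on a log axis, with exact Poisson 95% intervals. Between the bins from 3000 and from 60000 UMIs, Xbp1 drops from 299 to 21.8 CPM and Herpud1 from 282 to 29.3 CPM, whereas Calr rises from 175 to 270 CPM.

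Shares of barcodes with a UMI were compared after every barcode was thinned to 3000 UMIs, so that depth was equal. Like CPM, thinned shares are relative to all UMIs of a barcode and give no amount per cell. A UMI of Xbp1 was then found in 35.7% (28.2 to 43.7) of low-count and 8.86% (3.64 to 17.4) of deep barcodes of the 10% library, and in 49.2% (46.4 to 52.1) and 7.10% (5.18 to 9.44) of those of the 90% library. Unthinned shares of the 90% library were 62.3% and 59.1%. Herpud1 was found in 44.9% (42.1 to 47.7) and 7.26% (5.32 to 9.62) of thinned barcodes of the 90% library. Manf was found in 66.0% and 43.9%, and Atf4 in 76.4% and 52.1%. For Calr the order was the reverse, with 37.6% (34.9 to 40.3) and 52.6% (48.6 to 56.7). Creld2 was found in 10.5% and 10.2%. Sdf2l1 was found in 5.10% (2.22 to 9.79) of low-count and 10.1% (4.47 to 19.0) of deep barcodes of the 10% library, the reverse of its unthinned level, and in 6.68% and 5.45% of those of the 90% library. Barcodes of under 500 UMIs had Xbp1 at 121 CPM (44.3 to 263, 6 UMIs) in the 10% library. In the 90% library they had it at 30.3 CPM (6.25 to 88.6, 3 UMIs). Whether these barcodes hold free RNA was not tested.

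**Figure D4:**
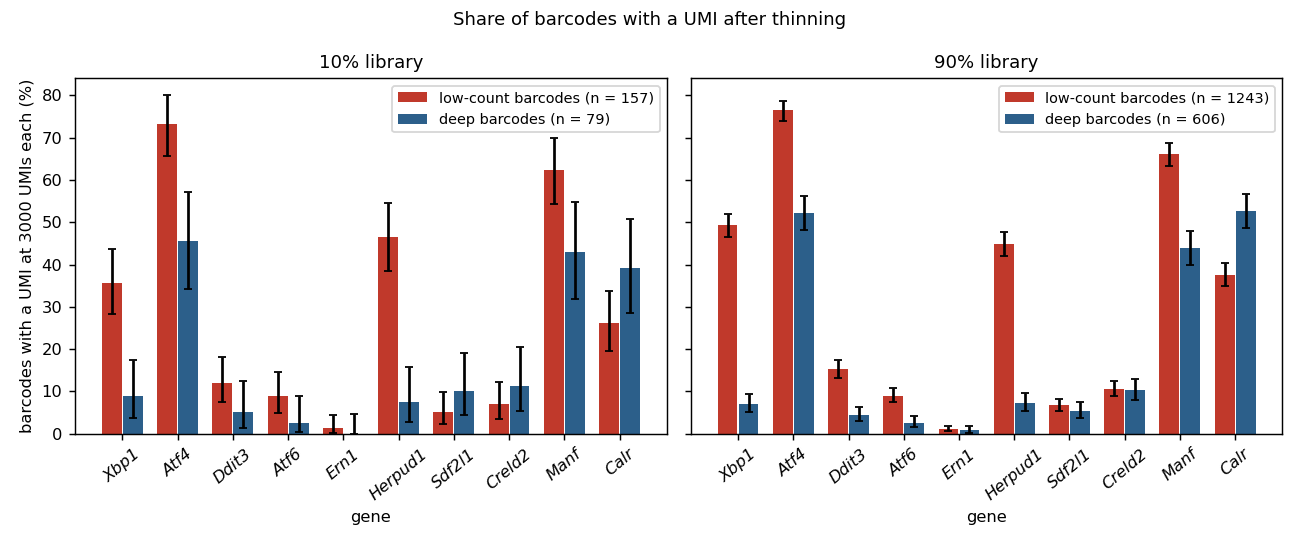
Percentage of barcodes with at least 1 UMI of each gene after thinning every barcode to 3000 UMIs, in low-count (red) and deep (blue) barcodes of each library, with exact binomial 95% intervals. Xbp1 reaches 49.2% against 7.10% in the 90% library, and Calr shows the opposite order.

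Cycling and depth were set apart only in part, since a low-count barcode with 0 cell-cycle UMIs may still come from a cycling cell. Low-count barcodes with a cell-cycle UMI, 148 in the 90% library, had Xbp1 at 150 CPM (127 to 176), between the other classes. This was 1.92-fold (1.62 to 2.28) below low-count barcodes without one and 6.09-fold (5.08 to 7.26) above deep barcodes. Deep barcodes with 0 cell-cycle UMIs, 35 in the 90% library, had Xbp1 at 31.9 CPM (22.8 to 43.4), against which low-count barcodes were 9.01-fold (6.59 to 12.7) higher. In the 10% library there were 9 such barcodes, with Xbp1 at 85.5 CPM (54.8 to 127), and the fold dropped to 2.56 (1.68 to 4.07). A single one of those 9 barcodes held 37.5% of their 24 Xbp1 UMIs.

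Myod1 status went with a small difference. Low-count barcodes of the 90% library with 0 UMIs of Myod1 had Xbp1 at 267 CPM (250 to 285), and those with 1 or more had it at 308 CPM (289 to 328). In the 10% library the values were 198 CPM (161 to 240) and 237 CPM (200 to 280), with overlapping intervals. The dissociation genes went with larger differences. A split chosen after the values were seen divided low-count barcodes of the 90% library into 61 with 0 UMIs of the 8 dissociation genes and 1182 with 1 or more. Xbp1 was at 163 CPM (121 to 215) in the former and 293 CPM (280 to 307) in the latter. Herpud1 was at 88.0 and 272 CPM, Ddit3 at 16.3 and 77.3 CPM, and Atf4 at 264 and 639 CPM. Deep barcodes, which were not split in this way, had 24.6 CPM of Xbp1 and 29.3 CPM of Herpud1, below the 61 barcodes. The intervals of the 61 barcodes for Ddit3 (5.29 to 38.0) and Atf4 (210 to 328) included the deep levels. Atf3 is both among the 8 dissociation genes and among the listed targets of Atf4 and CHOP, so the split is not independent of that branch. The part of dissociation was not tested. Median depth of the split low-count barcodes was similar, at 4398 and 4694 UMIs. The 10% library had 5 low-count barcodes with 0 UMIs of the dissociation genes. They held 2 UMIs of Xbp1, too few for a comparison.

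Wider lists of the pathway held called genes in both directions, to be read against the 10.5% of all genes tested that were higher in low-count and the 16.0% that were higher in deep barcodes. Among 12 sensors and proximal transducers, 6 passed the filter and 1 (16.7%) was higher in low-count barcodes, Creb3l2, an ER-resident transcription factor, at 42.2 and 36.3 CPM against 4.31 and 3.31 CPM. The median log2 ratio of those 6 was 0.52 in the 10% and 0.10 in the 90% library. Eif2ak3, which encodes Perk, stood at 2.69 and 2.94 CPM in low-count and 3.33 and 1.94 CPM in deep barcodes and did not pass the filter.

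Of 24 targets of Atf4 and CHOP, 22 were tested, 7 (31.8%) were higher in low-count and 4 (18.2%) in deep barcodes, the latter near the share of all genes, and the median log2 ratios were 0.52 and 0.93. Among those higher in low-count barcodes, the 4 with the largest difference were Cebpb, Ppp1r15a, Cebpg and Chac1. Ppp1r15a, the GADD34 subunit that reverses eIF2α phosphorylation, was at 395 and 469 CPM in low-count barcodes against 48.0 and 50.7 CPM in deep barcodes. Cebpb was at 54.7 and 164 CPM against 1.76 and 6.56 CPM, the partner Cebpg at 214 and 213 CPM against 48.4 and 44.2 CPM, and Chac1, which degrades glutathione, at 77.2 and 79.5 CPM against 15.1 and 17.5 CPM. The 4 that were higher in deep barcodes included enzymes of amino acid synthesis. Phgdh was 7.59-fold and 8.39-fold higher there, Psat1 6.23-fold and 5.12-fold, and Asns 9.18-fold and 13.6-fold. The pro-apoptotic gene Bbc3 was 3.58-fold and 3.87-fold higher. Atf3 was at 88.8 and 135 CPM in low-count against 51.8 and 41.3 CPM in deep barcodes and was not called. Trib3 was at 11.7 and 14.4 CPM against 14.9 and 12.4 CPM, without a shared direction.

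Chaperones and foldases were divided. Of 27 listed, 24 were tested, 5 (20.8%) were higher in low-count and 2 (8.33%) in deep barcodes, and the median log2 ratios of -0.10 and -0.12 were near those of all genes. Hspa5, the ER chaperone BiP, stood at 1694 and 1946 CPM in low-count against 225 and 242 CPM in deep barcodes, 7.52-fold (6.98 to 8.10) and 8.03-fold (7.80 to 8.27) apart. Dnajb9, a BiP co-chaperone, was 14.5-fold (11.5 to 18.5) and 15.9-fold (14.7 to 17.2) higher, and Dnajc3, an inhibitor of Perk, 5.30-fold and 6.58-fold. Hsp90b1, the chaperone GRP94, was at 343 and 411 CPM against 236 and 292 CPM and was not called. Prkcsh, a glucosidase subunit, and Ppib, a prolyl isomerase, were higher in deep barcodes, Ppib by 2.40-fold and 2.22-fold.

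ER-associated degradation had 16 tested genes of 23 listed, of which 3 (18.8%) were higher in low-count and 0 in deep barcodes, with median log2 ratios of 0.59 and 0.77. Beside Herpud1 these were the ubiquitin ligase Syvn1, at 26.0 and 23.6 CPM against 4.71 and 6.06 CPM, and the conjugating enzyme Ube2g2, at 63.7 and 71.6 CPM against 21.8 and 29.7 CPM. All 22 genes of ER import and export were tested, and 1 (4.55%) was called in each direction, below the share of all genes in both. Sec62 was higher in low-count barcodes by 2.68-fold and 2.57-fold, and Sec61b, a translocon subunit, was higher in deep barcodes by 2.51-fold and 2.34-fold. Bloc1s1, an mRNA that Ire1 degrades, had 19 and 176 UMIs in low-count and deep barcodes of the 10% library, or 17.05 and 34.5 CPM. In the 90% library it had 7 and 109 UMIs, or 1.085 and 3.65 CPM. These levels lay under 10 CPM, so Bloc1s1 did not pass the filter. Its lower level in the 90% library was not explained by any test. Several genes belong to both the 10 and these lists, which were chosen with earlier results of these data known.

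Long reads of the 10% library gave the same order for most genes. They counted 1382498 UMIs in low-count and 4628237 UMIs in deep barcodes, from the same cells as the short reads. Xbp1 stood at 660.4 CPM against 98.7 CPM in long reads, 6.69-fold (5.97 to 7.50) higher in low-count barcodes, and Herpud1 at 535 against 93.3 CPM, 5.74-fold (5.09 to 6.47). All 10 genes passed the filter and 5 were called, Xbp1, Herpud1, Ddit3, Atf6 and Ern1, against 14.3% of 7930 genes higher in low-count barcodes. None was called in the other direction, against 16.9%. Manf fell short, at 1.94-fold (1.77 to 2.13). Ern1 differed from the short reads, with 50.6 CPM (39.5 to 64.0) in low-count and 9.72 CPM (7.09 to 13.0) in deep barcodes, 5.21-fold (3.53 to 7.75), from 70 and 45 UMIs.

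The isoforms of Xbp1 were used in different shares. Long reads assigned 913 UMIs in low-count and 457 UMIs in deep barcodes to 19 isoforms. ENSMUST00000063084.15, which keeps the 26 bases, took 33.1% (30.03 to 36.24) of the UMIs in low-count and 47.5% (42.8 to 52.2) in deep barcodes, a difference of -14.4 percentage points (-19.9 to -8.90). The isoform numbered 2 among those that run from 5520980 to 5525893, which has no reference name, took 29.6% (26.6 to 32.7) and 12.7% (9.78 to 16.1), a difference of 16.9 points (12.5 to 21.0). The isoform numbered 15 with the same ends differed by -9.62 points (interval -13.98 to -5.526) and took 20.6% in deep barcodes. The exons of the unnamed isoforms could not be looked up. The deposited annotation came from another run, with gene version 19 in place of 18, and 16150 of the 60311 unnamed isoforms of the count table have a name that also occurs in it. How much of the 16.9 points reflects removal of the 26 bases was therefore not tested.

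The annotation itself showed both forms directly. It lists 26 structures of Xbp1 with 3074 supporting long reads, without cell labels. In 4 structures, with 1054 reads, the 26 bases at 5524270 to 5524295 were an intron, and 17 structures, with 1807 reads, kept them within an exon. The intron was removed in 36.8% (35.1 to 38.6) of these 2861 reads. Most of the reads without the intron belonged to 1 structure with the ends of the reference transcript and 770 reads, beside 847 reads of the reference transcript itself. Another 5 structures, with 213 reads, skipped the stretch or cut it at other places, with gaps of 19 to 1217 bases. How the supporting reads were counted is not given in the sources used here, so the percentage is a property of that list rather than of the cells.

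**Figure D5:**
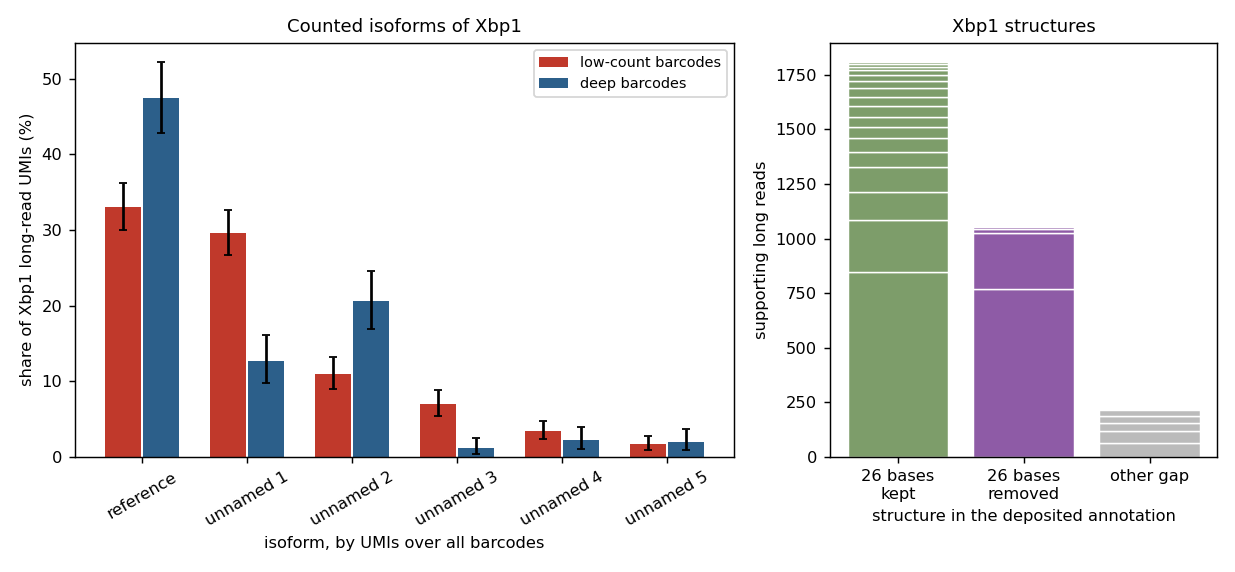
Left, share of the Xbp1 long-read UMIs taken by the 6 most counted isoforms, in low-count (red) and deep (blue) barcodes of the 10% library, with exact binomial 95% intervals. Right, supporting reads of the structures in the deposited annotation that keep the 26 bases, remove them or have another gap there, with 1 block for each structure. The reference isoform falls from 47.5% in deep to 33.1% in low-count barcodes, and 1054 supporting reads lack the intron.

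Shifts in isoform share were no more frequent among the 10 genes than among all genes. In all, 4 of the 10 genes had an isoform whose share differed by at least 10 points, Xbp1, Atf6, Ern1 and Creld2, whereas 65.9% of 5483 genes with 2 or more isoforms and at least 20 UMIs in each class did so. The number was 3, without Creld2, over isoforms of more than 15 UMIs, with the low-count class from 5000 UMIs or without the cell-cycle limit. Creld2 used ENSMUST00000024042.4 for 85.3% of 116 UMIs in low-count and 96.1% of 381 UMIs in deep barcodes, a difference of -10.7 points (-18.4 to -4.88). Its other isoforms took at most 5.17% in either class. Atf6 had 104 and 88 UMIs over 10 isoforms without a reference name. The one from 170814803 to 170867771 took 26.9% and 12.5%, the one from 170708748 to 170867771 took 7.69% and 26.1%, and the one from 170708697 to 170853564 took 6.73% and 27.3%. Ern1 shifted by -14.1 points (-31.4 to 4.41) and 11.9 points (-1.50 to 23.4) in isoforms of few UMIs, and both intervals included 0.

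The remaining genes each leaned on 1 or a pair of isoforms in both classes. Herpud1 used ENSMUST00000034220.7 for 70.5% and 73.8%, and no other of its 28 isoforms exceeded 3.47% in either class. Sdf2l1 used ENSMUST00000023453.9 for 96.5% and 97.1%. Atf4 used an unnamed isoform from 80255500 to 80257541 for 84.3% and 86.8%, one from the annotated start for 7.48% and 8.29%, and another for 4.42% and 2.29%. Calr used 1 unnamed isoform for 69.7% and 76.3%. In Manf, which lies on the - strand, a pair of unnamed isoforms with the same 5′ end at 106891932 and 3′ ends at 106888142 and 106888753 took 49.3% and 43.4% in low-count and 50.4% and 46.3% in deep barcodes. In Ddit3, an unnamed isoform from 127290863 to 127294570 took 46.1% and 37.5%, and ENSMUST00000026475.14 took 43.1% and 40.2%.

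Correlations among the 10 genes were weak in both classes. Over the 606 deep barcodes of the 90% library, each thinned to 20000 UMIs, Pearson's r of log2(UMI + 1) ranged from -0.14 to 0.28 over the 45 pairs, with a median of 0.03. The highest was that of Manf with Calr, followed by Ddit3 with Herpud1 at 0.26. In the 79 deep barcodes of the 10% library these ranged from -0.22 to 0.38, with a median of 0.02. The gene most like Xbp1 in the 90% library was Cd9, with r of 0.20, followed by Anxa5, Sparc, Cald1 and Itm2b at 0.18 each. In the 10% library the same genes had r of 0.07, 0.08, 0.01, 0.15 and 0.19. Over the 1243 low-count barcodes of the 90% library, each thinned to 3000 UMIs, r was above 0 for 44 of the 45 pairs and ranged from -0.01 to 0.24, with a median of 0.09. Among the 10 genes, Xbp1 had its highest r there with Manf, at 0.24, followed by Atf4 at 0.19. Hspa5, which is not among the 10, had a higher r with Xbp1, at 0.27. Over the 10 genes its r ranged from 0.03 with Ern1 to 0.42 with Manf. In the 157 low-count barcodes of the 10% library, 30 of 45 pairs were above 0, from -0.16 to 0.24. Xbp1 had r of 0.16 with Manf, 0.13 with Atf4 and 0.24 with Hspa5 in these barcodes. Each class was thinned to another depth, so its values are not comparable with those of the other. Correlations of this size in sparse counts are given as descriptions.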

How the data were processed

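MuSCs of 1 capture were measured in a 10% and a 90% library, with 6772259 and 39044129 short-read UMIs over 1991 and 3001 barcodes and 8297203 long-read UMIs for the former. Per the labels, Cell Ranger 1.3 and minimap2 2.17 were among the tools of the submitters' processing notes, on GRCm38.p6. The authors deposited UMI counts without normalization, made with scPipe per gene and with FLAMES per isoform, and an isoform annotation. Symbols came from Gencode vM21, of the same assembly, for 20791 of 20830 and 26939 of 26997 identifiers, and promoters from RefSeq.

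UMIs were summed per library and class and divided by the class total (CPM). Folds are ratios of CPM with exact intervals, and calls needed a 2-fold difference in both libraries after adding 10 CPM, with at least 10 CPM in 1 class of both libraries. Isoform shares have exact (Clopper-Pearson) intervals and differences Newcombe's. Barcodes of a capture are not replicates, so no test was run. Doublets were not called, and the 5% deepest barcodes were left out in an alternative. Named isoforms were the 3 with the most UMIs of a gene and any whose share differed by 10 points with at least 20 UMIs in each class. From each wider list, up to 4 called genes per direction with the largest mean absolute log2 ratio were named, and Hspa5, Hsp90b1, Eif2ak3, Atf3 and Trib3 regardless of their values. The genes with the highest r with Xbp1 were taken among those with a mean of at least 0.5 UMIs. The 10 genes and all lists were chosen with earlier results of these data known. Alternatives were other scalings (TMM in edgeR 4.0.16), pseudocount, filter, class limits, thinning, long reads and barcode sets. Python 3.11.15 with scipy 1.17.1 was used, and the functions were tested on simulated counts.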

Additional observations from a re-analysis of the deposited data

Results flagged for a closer look

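Creld2 pointed in opposite directions in the 2 libraries, with a fold of low-count over deep barcodes of 0.898 in the 10% library and 1.24 in the 90% library. The difference between the libraries was not tested, and the interval of the former includes 1.

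Long reads also fell on barcodes outside both classes. On 1508 barcodes of under 100 short-read UMIs, with a median of 576.5 long-read UMIs each, Xbp1 had 448 long-read UMIs, Herpud1 336, Atf4 1430, Ddit3 107, Atf6 31 and Ern1 29. The ER-lumen genes had 485 long-read UMIs for Manf, 841 for Calr, 127 for Creld2 and 77 for Sdf2l1. Together these were 3911 of 1522350 long-read UMIs. Xbp1 was at 294 CPM there, between its long-read levels in low-count and deep barcodes. The source of these reads was not tested.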

How the results depend on the processing

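No paired analysis was possible because each library is 1 sample of the same capture and no test was made. Of 218 folds recomputed, 181 stayed inside the interval of the reported value, and 0 called folds changed sign. Over 22 alternatives per gene, Xbp1 ranged from 2.56-fold to 13.3-fold, Herpud1 from 5.74 to 10.2, Ddit3 from 2.48 to 4.71 and Manf from 1.94 to 2.92. The lowest Xbp1 value rests on the 9 deep barcodes of the 10% library with 0 cell-cycle UMIs. TMM moved the median log2 ratio of all genes in the 10% library from -0.17 to -0.03. Leaving out barcodes with a UMI of an immune or endothelial marker, restricting deep barcodes to 0 cell-cycle UMIs and the split by dissociation genes were chosen after seeing the data. Leaving out shared barcodes changed the 90% library alone, since it empties the classes of the other.

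Counts of called genes moved as follows, and the cause was not tested. With 1 CPM added in place of 10, 1144 of all genes were higher in low-count and 1746 in deep barcodes. The lists then gave 2 sensors, 7 degradation genes and 2 import and export genes higher in low-count barcodes, and 7 Atf4 and CHOP targets and 2 import and export genes higher in deep barcodes. Degradation genes higher in low-count barcodes numbered 5 with TMM or without ribosomal and mitochondrial genes, and 1 without the cell-cycle limit. Thinning gave 2 sensors, and thinning or a mean over barcodes gave 2 import and export genes higher in deep barcodes. A low-count class from 5000 UMIs gave 1 chaperone and 0 import and export genes higher in deep barcodes. Deep barcodes with 0 cell-cycle UMIs gave 643 of all genes and 1 chaperone higher in deep barcodes, and 0 import and export genes higher in low-count barcodes. Long reads gave 1135 of all genes and 3 sensors higher in low-count barcodes, and 1 degradation gene and 3 import and export genes higher in deep barcodes. Over isoforms named after a reference transcript alone, 0 of the 10 genes shifted by 10 points and 1.28% of the sorted Xbp1 supporting reads lacked the intron.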
